A study of Canis lupus familiaris with 6 samples.

Results

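Immediate early genes are switched on within minutes of a stimulus by factors that already wait at their promoters, chiefly serum response factor and CREB, which MAP kinases and calcium signals activate. Many of them encode transcription factors, among them the FOS and JUN proteins that pair to form the activator AP-1, and their messenger RNAs are short-lived. In heart muscle they are known to respond to stretch, ischaemia, catecholamines and handling of the tissue. PHLDA1, a small protein with a pleckstrin homology-like domain, is induced by growth factor and stress signals.

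The 10 genes described here are PHLDA1, the AP-1 subunit genes FOS, FOSB, JUN and JUNB, the zinc finger factor gene EGR1, the stress-induced factor gene ATF3, the proto-oncogene MYC, the orphan nuclear receptor gene NR4A1 and the MAP kinase phosphatase gene DUSP1. They are 10 of the 15115 genes with a symbol of their own on the canine array. Every probe set that the array annotation gives to 1 of these symbols alone was taken, without a filter, which made 15 of 42924 probe sets. The genes were chosen by function with results of these arrays known, and PHLDA1 was selected on its low affected minus control value, so affected minus control values of the 10 genes are descriptions and carry no test.

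Tissue came from the left ventricle, frozen in liquid nitrogen, of 6 dogs, and the total RNA of each dog was put on its own array. The affected group was made up of 3 Great Danes with cardiomyopathy: a female of 9 years (affected 1) and 2 males of 7 years (affected 2 and affected 3). The controls were a male Labrador retriever of 12 years (control 1), a female St. Bernard of 10 years (control 2) and a male Greater Swiss Mountain dog of 4 years (control 3). All affected dogs were Great Danes and no control was, so breed and disease cannot be told apart, and each control was the only dog of its breed. Values are given on the log2 scale, relative to the median of the same probe set over the 6 arrays. A value of 1 is therefore 2-fold above that median, levels of different genes cannot be compared, and presence of the tissue's own markers could not be read as a level. In whole tissue, fewer cells of a type and less RNA per cell cannot be told apart.

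PHLDA1 was lower in every affected heart than in any control. Its single probe set had values of -1.26, -0.69 and -1.41 on affected 1, affected 2 and affected 3, against 0.69, 1.84 and 1.98 on control 1, control 2 and control 3. The groups were separated by a gap of 1.38, between affected 2 and control 1, the members of each group that lay nearest to the other group. The means were -1.12 ± 0.38 in affected and 1.50 ± 0.71 in control hearts (SD, n = 3 each), a difference of -2.62 on the log2 scale, 6.15-fold in size. This is the difference for which the gene was chosen. Among all 42924 probe sets, 18 were lower by at least as much, PHLDA1 included. With 1 array left out at a time the difference ran between -3.03 and -2.38.

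**Figure D1:**
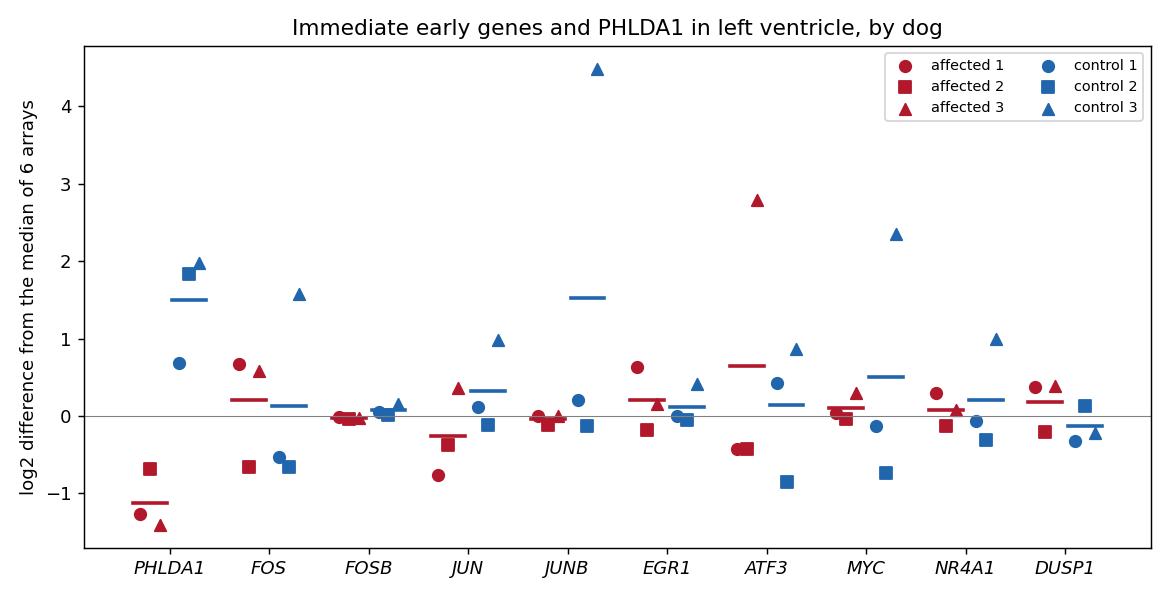
Log2 difference from the median of the 6 arrays (vertical axis) for each of the 10 genes, with affected dogs in red and controls in blue, symbols for single dogs and bars for group means of 3 dogs; genes with several probe sets are shown as their mean. PHLDA1 is the gene with a wide gap between the groups, and JUNB (4.49), MYC (2.36) and FOS (1.58) have their highest value on control 3.

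A lack of overlap by itself was common on these arrays. Every affected dog lay below every control in 4 of the 15 probe sets, which belonged to PHLDA1, FOSB, NR4A1 and EGR1, and this held for 46.9% of all probe sets. Affected lay above control without overlap in 0 of the 15, against 5.37% of all. With a difference of at least 1 in size as well, PHLDA1 alone remained of the 15 probe sets on the lower side, where 0.471% of all probe sets met both conditions. By the limma fit over all probe sets 0 of the 15 passed the adjusted threshold of 0.05 in either direction. That fit called 1 probe set in all, without a gene symbol and higher in affected hearts (0.00233% of those tested), and 0% on the lower side, while at an unadjusted p under 0.05 it held 1945 higher and 2713 lower ones (4.53% and 6.32%).

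Neutrophil markers were also summed up by array. Values for 4 of the 7 listed genes had a median of -0.33, -0.28 and -0.86 on affected 1, affected 2 and affected 3, and of 0.90, 0.25 and 0.75 on control 1, control 2 and control 3. All 6 of their probe sets were lower in affected hearts, where 67.0% of all probe sets were, and their median difference was -0.11 beside -0.08 for all. The 2 probe sets lower by at least 1 were those of the calgranulin genes S100A8 (-2.14) and S100A9 (-2.71), while those of MPO and CSF3R differed by between -0.13 and -0.066. The part of these cells in the PHLDA1 values was not tested. The other genes whose probe sets lay nearest to PHLDA1 over the 6 arrays were GPX3, a secreted glutathione peroxidase, with a root mean square difference of 0.60, RCC2 with 0.63 and the chemokine gene CXCL10 with 0.64, among 28297 probe sets compared. GPX3 had -0.44, -0.37 and -0.63 on the affected arrays, against 0.37, 1.08 and 1.64 on the control arrays. GPX3 and RCC2 spanned less over the arrays (2.28 and 1.93) than PHLDA1 (3.39), and CXCL10 spanned more (4.46). None of the 28297 lay within 0.1 of PHLDA1. Being picked for nearness, these genes share by construction the low affected values for which PHLDA1 was chosen.

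FOS, the partner of JUN proteins in AP-1, was measured by a pair of probe sets that ran alike. The first had 0.81, -0.82 and 0.92 on affected 1, affected 2 and affected 3, against -0.81, -0.91 and 1.57 on control 1, control 2 and control 3. The second had 0.55, -0.48 and 0.25 on the affected arrays, against -0.25, -0.41 and 1.59 on the control arrays. In both, control 3 was highest, affected 1 and affected 3 followed, and affected 2, control 1 and control 2 were low, so that the groups overlapped fully. The mean of both probe sets was 0.20 ± 0.74 in affected and 0.13 ± 1.26 in control hearts (SD, n = 3 each), a difference of 0.07 that is far smaller than the spread between dogs of a group. Its sign was not stable: without control 3 the difference was 0.80, without control 2 it was -0.32, and after quantile normalization it was -0.07.

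JUNB, an AP-1 subunit gene of the JUN family, stood out on a single array. It had values of -0.0050, -0.11 and 0.0050 on the affected arrays, against 0.21, -0.13 and 4.49 on control 1, control 2 and control 3. Control 3 thus lay 4.28 above the next array, while the other 5 arrays spanned 0.34. The difference of -1.56 between -0.04 ± 0.06 in affected and 1.52 ± 2.57 in control hearts (SD, n = 3 each) came down to -0.08 without control 3. The annotation's gene ID for JUNB was not in the RefSeq gene table, whereas the IDs of the other 9 genes carried the same symbol there.

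MYC, which encodes a growth-promoting transcription factor, was also highest on control 3. Its values were 0.04, -0.04 and 0.30 on the affected arrays, against -0.12, -0.73 and 2.36 on control 1, control 2 and control 3. The 3 affected dogs lay close together, above control 1 and control 2 and 2.06 or more below control 3. The difference was -0.40 with all arrays, between 0.10 ± 0.18 in affected and 0.50 ± 1.64 in control hearts (SD, n = 3 each), and 0.53 without control 3.

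JUN, the founding member of its family, had -0.77, -0.37 and 0.36 on affected 1, affected 2 and affected 3, against 0.12, -0.12 and 0.98 on the control arrays. Affected 1 and affected 2 lay below all controls, and affected 3 lay above control 1 and control 2. The means were -0.26 ± 0.57 in affected and 0.33 ± 0.58 in control hearts (SD, n = 3 each). Their difference of -0.58 was about the size of the SD within each group. It was -0.26 without control 3 and -0.89 without affected 3.

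FOSB, another FOS family gene, moved very little. Its values were -0.013, -0.042 and -0.024 on the affected arrays, against 0.055, 0.013 and 0.15 on the control arrays. These are close to the values of 17 control probe sets for artificial sequence tags to which no dog transcript should bind. Those averaged -0.030, -0.032 and -0.014 on the affected arrays, against 0.059, 0.011 and 0.13 on the control arrays. FOSB spanned 0.19 over the 6 arrays, and the tag probe sets spanned between 0.12 and 0.38. Of the 28297 probe sets compared, 10302 lay within 0.1 of FOSB, the nearest being those of MLXIP at 0.0040, KCNK2 at 0.0051 and ESR2 at 0.0057. The difference of -0.099 was -0.026 after each array was centred on its median and -0.019 after quantile normalization, and the groups then overlapped.

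NR4A1, an orphan nuclear receptor of the immediate early class, gave different pictures in its 2 probe sets. The first had 0.60, -0.25 and 0.16 on affected 1, affected 2 and affected 3, against -0.16, -0.63 and 1.20 on the control arrays, with control 3 highest and affected 1 and affected 3 next, as for FOS. The second had -0.015, -0.024 and -0.0093 on the affected arrays, against 0.034, 0.0093 and 0.79 on the control arrays. Apart from control 3 it stayed within 0.058, and its lack of overlap rested on values that small, where the tag control means already ran between -0.032 and 0.059 on the same arrays. The first probe set differed by 0.03 and the second by -0.29 between affected and control hearts. As their mean the gene differed by -0.13, and by 0.26 without control 3. The probe sets nearest to the first one belonged to ROBO1 (0.16), RITA1 (0.19) and the transcriptional repressor gene BCL6 (0.21).

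EGR1, a zinc finger factor gene that is a standard readout of serum response factor activity, also had 2 probe sets, which disagreed. One had 1.27, -0.31 and 0.37 on affected 1, affected 2 and affected 3, against -0.12, -0.11 and 0.11 on the control arrays, so affected 1 was 0.90 above the next dog. The other had -0.0015, -0.046 and -0.062 on the affected arrays, against 0.13, 0.0015 and 0.73 on the control arrays, with control 3 highest and the remaining arrays within 0.19 of each other. Which of them measures EGR1 better was not tested. They differed by 0.48 and -0.32 between the groups, in opposite directions, and their mean by 0.08. The nearest probe sets to the first one were those of TMEM98 (0.089), GLMP (0.12) and CHD3 (0.12).

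**Figure D2:**
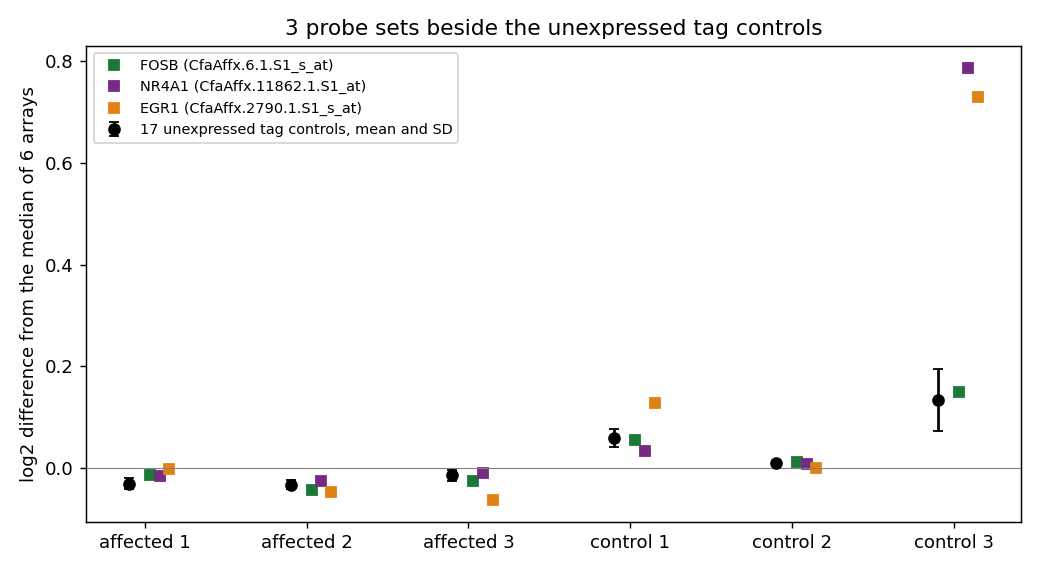
Log2 difference from the median of the 6 arrays (vertical axis) on each array for the FOSB probe set and the lower-range NR4A1 and EGR1 probe sets (squares), beside the mean and SD of 17 tag control probe sets (black circles). FOSB stays with the tags on all arrays, up to 0.15 on control 3, while NR4A1 and EGR1 leave them on control 3, at 0.79 and 0.73.

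ATF3, a CREB family factor gene induced by many kinds of cell stress, was high in 1 affected heart. Its values were -0.43, -0.43 and 2.80 on affected 1, affected 2 and affected 3, against 0.43, -0.86 and 0.86 on the control arrays. Affected 3 was 1.93 above control 3, the next array, and the other affected dogs lay between control 2 and control 1. The difference was 0.50, between 0.65 ± 1.86 in affected and 0.14 ± 0.89 in control hearts (SD, n = 3 each), and it turned to -0.57 without affected 3.

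DUSP1, a phosphatase that switches MAP kinases off and is itself an immediate early gene, did not have its highest value on control 3. In each of its 3 probe sets affected 2 was the lowest of the affected dogs. The first had 0.29, -0.24 and 0.36 on the affected arrays, against -0.55, 0.24 and -0.49 on the control arrays. The other two had 0.39, -0.15 and 0.35 and 0.44, -0.24 and 0.47 on the affected arrays, against -0.25, 0.09 and -0.09 and -0.16, 0.08 and -0.08 on the control arrays. Affected 1 and affected 3 were above every control in all 3 probe sets, and affected 2 was not. As a mean of its probe sets the gene was at 0.18 ± 0.34 in affected and -0.13 ± 0.24 in control hearts (SD, n = 3 each), a difference of 0.32, or 0.51 without affected 2.

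**Figure D3:**
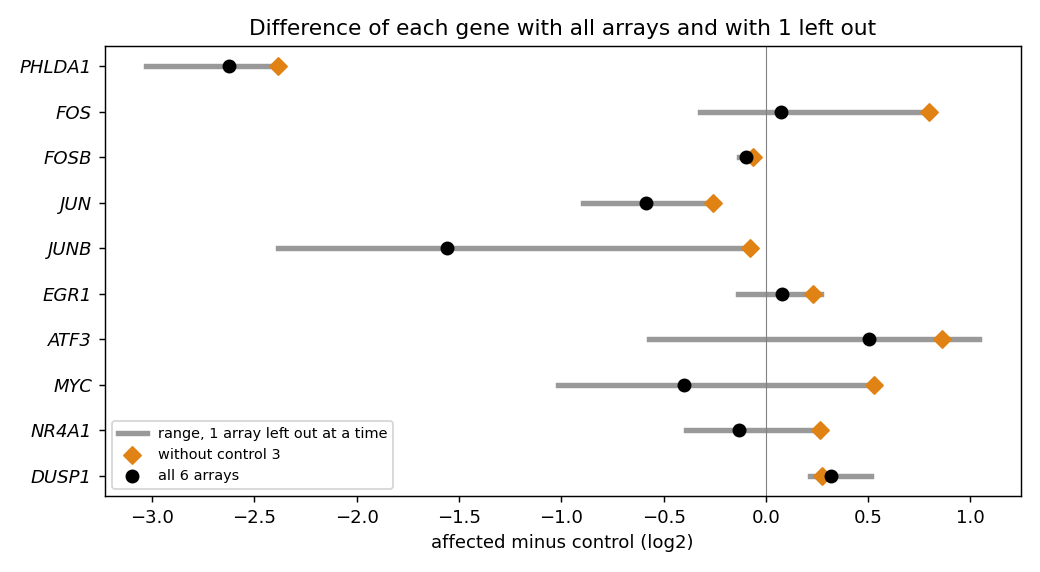
Affected minus control on the log2 scale (horizontal axis) for each of the 10 genes, with all 6 arrays (black), without control 3 (orange) and over the 6 fits that each leave out 1 array (grey bars). PHLDA1 stays between -3.03 and -2.38, while FOS, EGR1, ATF3, MYC and NR4A1 have bars on both sides of 0.

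Read dog by dog, the 10 genes set control 3 apart from the other arrays. The median over the 10 genes was 0.02, -0.19 and 0.23 on affected 1, affected 2 and affected 3, against 0.03, -0.12 and 0.98 on control 1, control 2 and control 3. Affected 2 was above 0 in 0 of the 10 genes, and control 3 in 9 of 10, DUSP1 being the exception. These counts include PHLDA1, chosen for its low affected minus control value, and FOSB, whose values were close to the tag controls. Tag means were -0.032 on affected 2 and 0.13 on control 3. The share of all probe sets above 0 on these arrays was not counted. Over all probe sets affected 2 also had the lowest median of the arrays (-0.031) and control 3 the highest (0.087). Affected 2 was the lowest array in 5 of the 15 probe sets, beside 38.5% of all probe sets. Control 3 was the highest array in 10 of the 15 probe sets, where it was highest in 50.0% of all probe sets. It led the next array by at least 0.5 in 8 of the 15 probe sets, those of FOS, NR4A1, JUN, JUNB, MYC and 1 of EGR1, where 3.14% of all probe sets did. It led by at least 1 in 3 of them, against 0.808% of all. Of the other arrays, affected 1 led by at least 0.5 in 1 probe set, of EGR1 (2.6% of all), and affected 3 in 1, of ATF3 (1.8% of all). Among probe sets that spanned at least 1 over the arrays, 6 of 9 of these genes' probe sets had control 3 in the lead by 0.5, against 8.15% of all 10128 such probe sets. The lead was chosen as a measure after the values were seen, it rests on 1 dog, and no test was made of it.

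Control 3 also stood apart on other measures. It had 1683 probe sets below -1, and the other arrays had between 161 and 510. Above 1 it had 688, which was not the most, with 1029, 486 and 757 on the affected arrays and 485 and 533 on control 1 and control 2. For beta-actin, the mean of the 3' probe sets minus that of the 5' ones, which is higher where RNA is more degraded, was 0.31, -0.18 and 0.58 on the affected arrays, against 0.08, 0.11 and -0.34 on the control arrays, lowest on control 3. For GAPDH it was 0.02, 0.14 and -0.03 on the affected arrays, against -0.04, 0.15 and -0.14 on the control arrays. Fibroblast markers (9 of 9 genes measured) had a median of 0.99, 0.035 and 0.66 on the affected arrays, against -0.30, -0.035 and -1.51 on the control arrays, also lowest on control 3. Their part in the values of the 10 genes was not tested. The other marker lists differed by medians, over their probe sets, of 0.13 for cardiomyocytes, -0.26 for endothelium, 0.0045 for smooth muscle and pericytes, 0.81 for macrophages and monocytes, -0.10 for T and NK cells, -0.06 for adipocytes and -0.80 for red blood cells, the last with only 2 probe sets. For fibroblasts the median was 1.73, for neutrophils -0.11, and over all probe sets -0.08. Some of these differences followed single dogs. By array, macrophage and monocyte markers had medians of 2.30, -0.15 and -0.0033 on the affected arrays, against 1.48, -0.42 and -0.71 on the control arrays. Red blood cell markers were highest on control 2 (2.77), and adipocyte markers on affected 1 (1.28).

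Genes that belong to the same response were read from 9 lists by textbook function, with 131 genes and 243 probe sets measured. In the limma fit over all probe sets 0 of the 243 passed the adjusted threshold, and 12 were higher and 15 lower at an unadjusted p under 0.05. The 35 genes named below, up to 4 per list with the smallest p, had limma adjusted p values of 0.296 to 0.310, so none of their differences passed. For a gene with several probe sets the difference given is that of the probe set with the smallest p, with those of its other probe sets beside it.

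The other AP-1 subunits lay lower in affected hearts in 14 of 14 probe sets, where 67.0% of all probe sets did, with a median of -0.17 beside -0.08 for all probe sets (-0.077 beside -0.058 without control 3), and 0 passed the adjusted threshold (0 higher and 1 lower at an unadjusted p under 0.05). ATF2, a stress-kinase target, differed by -0.50 (SE 0.17) and by -0.21 to -0.09 in its other probe sets. BATF3, BATF2 and the small MAF gene MAFF differed by -0.13, -0.085 and -0.083. Their ranges over the arrays were no wider than that of the widest tag control (0.38). In this list control 3 led by at least 0.5 in 5 of 14 probe sets (35.7%), in 3 of 9 genes. The genes with the widest leads, picked after their values were seen, were FOSL2, a FOS family partner of JUN, and the small MAF gene MAFG. FOSL2 had -0.0015, -0.098 and 0.0015 on the affected arrays, against 0.034, -0.033 and 3.10 on the control arrays, and its other probe set stood at 2.53 on control 3. MAFG had -0.11, -0.11 and 0.05 on the affected arrays, against 0.39, -0.05 and 1.93 on the control arrays.

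Effector genes of the immediate early class had a median of -0.01 (0.12 without control 3 and -0.19 without control 2), with 26 of 47 probe sets below 0 and 0 past the adjusted threshold (2 higher and 1 lower at an unadjusted p under 0.05). CCN1, a matricellular protein gene induced by stretch, was at 0.49, 1.44 and 2.13 on the affected arrays, against -0.49, -1.31 and -1.52 on the control arrays. It differed by 2.46 (SE 0.50) without overlap, and by 1.09 with overlap in its other probe set. Its relative CCN2 differed by 1.71 (SE 0.86) and 1.82, both with overlap. SGK1, a serum-induced kinase, differed by 0.74 (SE 0.17) in one probe set and by 0.18 and 0.13 in the others, and SOCS2, a cytokine signalling inhibitor, by -1.13 (SE 0.41). The CCN genes were lowest on control 3, with -1.52 for CCN1 and -2.24 for CCN2, where FOS, JUNB and MYC were highest. That opposite order rests on 1 dog. On control 2 the CCN genes were low as well, with -1.31 for CCN1 and -1.99 for CCN2. There FOS (-0.66 as a mean of its probe sets), JUNB (-0.13) and MYC (-0.73) had their lowest values.

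In the same effector list control 3 led by at least 0.5 in 15 of 47 probe sets (31.9%), from 9 of 27 genes, beside the 3.14% of all probe sets. These genes were BTG2, GADD45B, IL6, PIM1, RGS2, SIK1, THBS1, TRIB1 and ZFP36. IL6, an inflammatory cytokine gene and the widest lead, picked after its value was seen, had -0.032, -0.043 and -0.012 on the affected arrays, against 0.060, 0.012 and 5.25 on the control arrays. Its other 5 values are of the size of the tag controls. ZFP36, whose product destabilises cytokine and immediate early messenger RNAs, had 0.15, -0.37 and -0.04 on the affected arrays, against 0.04, -0.38 and 3.09 on the control arrays. GADD45B, a stress-induced gene, had -0.47, -1.02 and 1.20 on the affected arrays, against 0.47, -1.84 and 3.06 on the control arrays, and affected 3 came second there as it did for MYC and JUN.

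**Figure D4:**
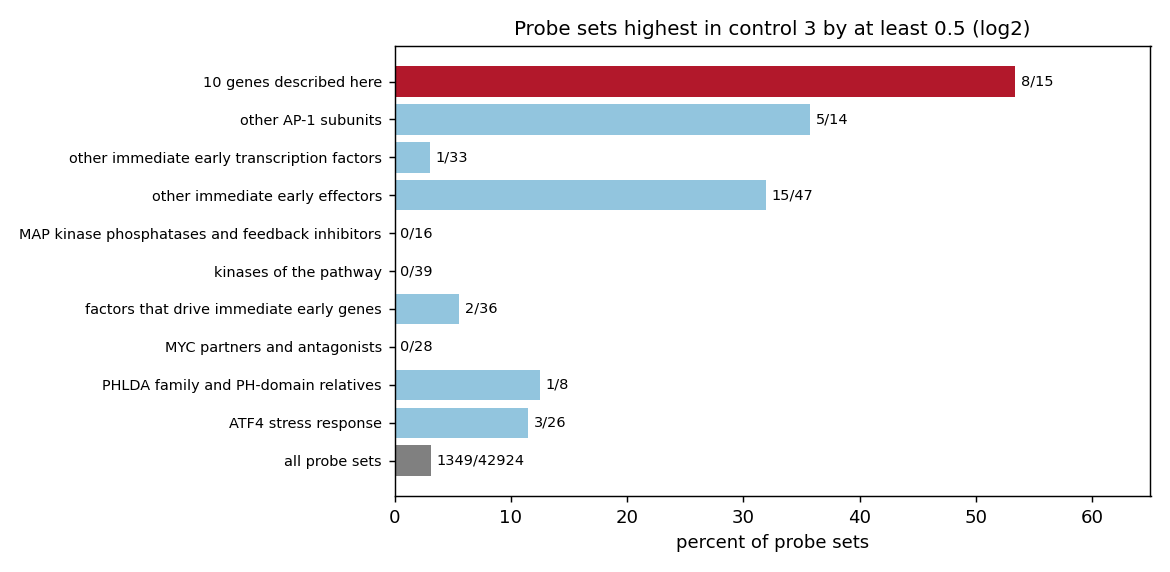
Percent of probe sets (horizontal axis) whose highest value was on control 3 by at least 0.5 on the log2 scale, for the 10 genes (red), 9 related gene lists (blue) and all probe sets (grey), with the counts beside the bars. The 10 genes (8 of 15), other AP-1 subunits (5 of 14) and other effectors (15 of 47) have the long bars.

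Of 26 listed remaining immediate early transcription factors 19 were measured. Among their probe sets 1 of 33 had that lead on control 3 (3.03%), the one for SNAI1. EGR2 and EGR3, relatives of EGR1, had 0.07 and 0.08 on control 3 and stayed within the span of the tag controls. The probe sets of EGR4, CSRNP1, MAFF and FOSL1 and some of those of PER1 also had ranges no wider than that of the widest tag control. NR4A2, a relative of NR4A1, had -0.47, 1.16 and -0.42 on the affected arrays, against 0.33, 2.30 and -0.33 on the control arrays, highest on control 2. As a group the list had a median of -0.06, with 0 probe sets past the adjusted threshold (3 higher and 2 lower at an unadjusted p under 0.05). ID3, an inhibitor of basic helix-loop-helix factors, differed by 0.67 (SE 0.16) and 0.60 in its 2 probe sets, and SNAI2 by 1.23 (SE 0.39). NFIL3 differed by -0.25 (SE 0.10), with -0.34 and -0.26 in its other probe sets, and KLF10 by -0.46 (SE 0.18).

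Upstream of the 10 genes, kinases of the MAP kinase pathway had a median of -0.07 over 39 probe sets (0.059 without control 1) and the factors that drive immediate early genes one of -0.08 over 36, beside -0.08 for all. Neither list had a probe set past the adjusted threshold (1 higher and 3 lower, and 1 higher and 4 lower, at an unadjusted p under 0.05). MAPKAPK3, a kinase downstream of p38, differed by 0.29 (SE 0.06). The kinase gene MAPK8 differed by -0.20. Its range of 0.34 over the arrays was below that of the widest tag control (0.38). It did not follow the tags on control 1, where it was at 0.25 and the tag mean at 0.059. MAP2K6 differed by -0.36 and between -0.15 and 0.41 in its other probe sets, and RPS6KA2 by -0.13, -0.20 and -0.093. The RPS6KA2 probe sets with -0.13 and -0.093 also had ranges no wider than that of the widest tag control. Among the driving factors CREB3 differed by 0.40 and 0.22 and the CREB relative ATF1 by -0.59. The muscle factor MEF2A differed by -0.996, and its other 5 probe sets by between -1.41 and -0.073. In the probe set with -0.996, affected 1 and affected 3 were at -1.18 and -1.07, but affected 2 at -0.0055, next to control 2 (0.0055). The groups overlapped in the probe set with -1.41, where affected 2 was at 0.031. MEF2C, a factor of the same family, differed by -0.35 in one probe set and by 0.10, 0.20, 0.19 and -0.13 in the others. Control 3 led by at least 0.5 in 0 of the 39 kinase probe sets and 2 of the 36 others.

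Phosphatases and feedback inhibitors of MAP kinases, the class of DUSP1, had a median of 0.04 over 16 probe sets (-0.085 without affected 3), with 0 past the adjusted threshold (1 higher and 0 lower at an unadjusted p under 0.05) and 0 led by control 3. SPRY1, a feedback inhibitor of growth factor signalling, was at 0.40, 0.17 and 0.59 on the affected arrays, against -0.17, -0.30 and -0.56 on the control arrays, a difference of 0.73 (SE 0.15). DUSP7, DUSP5 and SPRED1 differed by -0.36, -0.093 and -0.13. DUSP5 and SPRED1 had ranges over the arrays no wider than that of the widest tag control (0.38). SPRED1 was at -0.20 on affected 3, however, where the tag mean was -0.014. Partners and antagonists of MYC had a median of -0.08 over 28 probe sets, 0 past the adjusted threshold (0 higher and 3 lower at an unadjusted p under 0.05) and 0 led by control 3. MAX, the obligate partner of MYC, differed by -0.25 (SE 0.08) without overlap and by -0.75 and -1.43 with overlap in its other probe sets. MYCBP differed by -0.47 and -0.068, MYCBP2 by 0.53 and by 0.17 to 0.33 in its other probe sets, and MLX by 0.39, 0.35 and 0.17.

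Of 5 listed relatives of PHLDA1 by name or domain, 3 were measured, PHLDB1, PHLDB2 and PHLDB3, while PHLDA2 and PHLDA3 were not. Their 8 probe sets had a median of 0.51, with 0 past the adjusted threshold (3 higher, all of PHLDB2, and 0 lower at an unadjusted p under 0.05). PHLDB1, PHLDB2 and PHLDB3 differed by 0.93 (SE 0.58), 0.64 (SE 0.23) and 0.69 (SE 0.34) in the probe set with the smallest p of each, where PHLDB1 and PHLDB3 overlapped between the groups. The other probe sets of PHLDB1 and PHLDB3 differed by -0.34 and -0.066, and those of PHLDB2 by 0.33 to 0.54. The ATF4 stress response genes, a program in which ATF3 takes part, had a median of 0.18 over 26 probe sets (-0.12 without control 2 and -0.072 without affected 3), with 0 past the adjusted threshold (1 higher and 1 lower at an unadjusted p under 0.05). DDIT3, a transcription factor gene of that response, was at 0.73, 0.67 and 0.19 on the affected arrays, against -0.19, -0.29 and -0.51 on the control arrays, a difference of 0.86 (SE 0.17). VLDLR differed by -0.82, with -0.57 and -0.35 in its other probe sets, and XPOT by 0.34. SESN2 differed by -0.11, with a range over the arrays no wider than that of the widest tag control. CHAC1 and TRIB3, picked after their values were seen, were the genes of this list that control 3 led, at 3.12 and 2.06, while DDIT3 was lowest on that array.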

How the data were processed

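Left ventricular RNA of 6 dogs (3 affected, 3 control) was measured on Affymetrix canine arrays. The deposited log2 values come from the authors' processing. GCRMA and MAS5 are the tools listed, per the submitters' processing notes, without saying how each was used; the scale was inferred from these names and the range of values. Every one of the 43035 rows had a median of 0 (within 1e-06), so levels are lost. The fit excluded 111 control probe sets. Of the other 42924, 29254 had 1 gene symbol in the array annotation, 439 several and 13231 were not listed.

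The comparison used the limma package, version 3.58.1, under R version 4.3.3 (lmFit and eBayes with no covariate, no filter, two-sided, Benjamini-Hochberg adjustment over 42924 probe sets, threshold 0.05), and the steps were tested on simulated data. Precision is limited by the number of arrays, 3 per group. The members and the lists were chosen with earlier results of these data known. Named genes were the 10 members, up to 4 genes per list with the smallest p, and the 3 genes nearest to PHLDA1 and to members with a probe set without overlap. Nearness is the root mean square difference over the 6 arrays, taken for the member's probe set of the largest range. A planned search for promoter motifs was not run, and no sequences or coordinates were used here. Alternatives were other scalings, a filter on range that drops the lowest 40% of probe sets, sex, age, the replicate number as a block, robust variance priors and leaving out each array.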

Additional observations from a re-analysis of the deposited data

How the results depend on the processing

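The number of probe sets past the adjusted threshold in limma, 1 with all arrays, was 0 after quantile normalization, with age and with the replicate block, 6 with the filter on range, and between 0 and 5 with 1 array left out. The replicate numbers pair no dogs by the labels. The correlations of deviations for dogs with the same number were 0.27, 0.15 and 0.02. Those for dogs with different numbers ran between -0.23 and 0.04, so 0.27 and 0.15 were the highest of all pairs. Control 3 correlated better with affected 2 (0.04) than with affected 3. The replicate block moved the count of calls to 0. It could not change the differences of the 10 genes, since each replicate number holds 1 affected and 1 control array. Of the 10 genes' probe sets, 4 had groups without overlap, and 1, that of PHLDA1, after quantile normalization and after median centring. For all probe sets the share was 19.7% lower and 12.7% higher after quantile normalization and 18.1% and 12.9% after median centring. With 1 array left out the count was between 4 and 8, the highest without affected 2, where 4 were lower (52.1% of all) and 4, of DUSP1 and EGR1, higher (11.4% of all). FOSB differed by -0.019 after quantile normalization and -0.026 after median centring. It was left out by the filter on range, which gave it no value. EGR1 differed by 0.48 in its probe set of the largest range. With 1 array left out, differences ran between -0.32 and 0.80 for FOS, -0.13 and -0.061 for FOSB, -0.89 and -0.26 for JUN, -2.39 and -0.079 for JUNB, -0.13 and 0.27 for EGR1, -0.57 and 1.04 for ATF3, -1.02 and 0.53 for MYC, -0.39 and 0.26 for NR4A1 and 0.22 and 0.51 for DUSP1. The count of 8 probe sets led by control 3 was 8 after quantile normalization (2.4% of all probe sets) and 7 after median centring (2.72%), alternatives chosen after seeing the data. List medians turned sign with 1 array left out for effectors, kinases, phosphatases and the ATF4 response, as given with each list. Some also turned sign with the processing. The other immediate early transcription factors went from -0.058 to 0.022 after quantile normalization, 0.015 after median centring and 0.14 with the filter on range. Effectors went to 0.024 and 0.061 with the 2 scalings, and kinases to 0.0022 after median centring. All probe sets had medians of -0.013, -0.0071 and 0.021 in these 3 fits. In the 9 lists 0 probe sets passed the adjusted threshold in all fits listed. The cause of these shifts was not tested.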
